A study of Mus musculus with 2 samples.

Results

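The 10 genes described here belong to the amino acid starvation and serine-glycine response: Atf4, Ddit3, Trib3, Chac1, Asns, Phgdh, Psat1, Shmt2, Mthfd2 and Cth. They were taken by name, as every probe on the array whose gene name is 1 of these 10, with no threshold on a measured value. All 10 were found, with 13 probes between them, among 28783 gene names on the array. Of these names, 16023 were measured on both arrays, meaning that at least 1 probe lay well above background on each, and all 10 genes and all 13 probes were among them.

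The samples were RAW 264.7 cells, a mouse macrophage-like line that can be turned towards osteoclasts by RANKL, the osteoclast differentiation cytokine. The first sample came from cells held for 24 h in an RCCS, a rotating culture vessel that keeps cells suspended and serves as a ground model of microgravity. The second was the control, kept at normal gravity. The labels name RANKL at 80 ng/ml for 24 h in a treatment text that is the same for both samples, so whether the control cells also received it is not stated for each sample. Each condition was a single culture on a single array, and nothing in the labels names a replicate.

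With 1 array per condition there was no test between conditions. Every difference below compares these 2 arrays, is a log2 ratio of RCCS over control after each array was divided by its own 75th percentile, and carries no p-value. The 95% interval printed as ± was taken from the error that the scanner software assigned to each spot, called spot error below. The assigned error of a gene's log2 ratio had a median of 0.20. It hardly varied between member probes, from 0.204 to 0.214 at signals from 139 to 32125. For members with 1 probe the interval thus acts nearly as 1 fixed cutoff. Repeat spots of probes at signals of 100 or more had a smaller median SD, of 0.04. A difference within the assigned error may thus still exceed the spread of repeat spots. The interval covers the spot only, and leaves out the spread between cultures, RNA preparations and labelling. Since RNA came from whole cultures, fewer cells of a type and less RNA per cell cannot be told apart.

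The arrays were close in quality. The 75th percentile of processed signal was 966 on the RCCS array, against 849 on the control, and 60.6% and 57.5% of probes lay well above background on the RCCS and control arrays. All 10 macrophage markers examined were measured on both arrays. Itgam, the integrin CD11b, was 4.00-fold higher on the RCCS array, Spi1, the factor PU.1, had a log2 ratio of -0.72, and the median log2 ratio of the 10 was 0.06. Before scaling, their brightest probes summed to 1.03636e+06 on the RCCS array, against 904132 on the control. The 75th percentiles above differ in the same direction. Of 14 markers of other cell types, 6 were measured on both arrays and 6 on neither. Their summed signal, also before scaling, was 632 on the RCCS array, against 668 on the control, and none passed 149.

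Cells that run short of an amino acid, or that stall in protein folding, phosphorylate the translation factor eIF2alpha. General translation then slows while the mRNA of ATF4, a bZIP transcription factor, is translated more, so ATF4 protein is set largely by translation and not by its mRNA alone. ATF4 pairs with C/EBP factors at composite sites and drives genes for amino acid import and synthesis, among them those that make serine from a glycolytic intermediate and split it into glycine and one-carbon units on folate. In macrophages this serine-glycine route feeds nucleotide and glutathione synthesis.

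ATF4 and C/EBP factors are known to bind a composite element, so the promoter stretches that hold its core are shown before the values. RefSeq windows of 300 bases on GRCm38.p6, 250 before and 50 after each gene's start, were matched for 9 of the 10 genes. Cth was not among them. The core TGATGNAA, searched on both strands, was found in Chac1, Asns and Trib3. In the lines below, each read 5′ to 3′ on the strand of its gene, capitals mark the match; Chac1 and Trib3 carry it on the opposite strand. The Chac1 stretch is chr2:119351023-119351082 on the plus strand, the Asns stretch is chr6:7693210-7693269 on the minus strand and the Trib3 stretch, just after the start, is chr2:152344028-152344057 on the minus strand.
Chac1: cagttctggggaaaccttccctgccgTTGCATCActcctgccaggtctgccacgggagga
Asns: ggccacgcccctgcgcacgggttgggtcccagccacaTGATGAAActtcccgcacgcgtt
Trib3: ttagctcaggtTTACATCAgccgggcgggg

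The same core was present in 3.97% of all 32851 windows in the table. The CRE palindrome TGACGTCA was present in 1.79% of windows and the E-box CACGTG in 7.15%, and neither was found in any of the 9 member windows. A match is a run of letters and not a shown binding site, and its absence from these windows tells nothing about bases outside them.

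A further string shared by members was picked out after the windows had been read. TGGTGCAA, or TTGCACCA on the other strand, was found in the Trib3 and Psat1 windows and in 0.536% of all windows. The Trib3 stretch is chr2:152344061-152344120 and the Psat1 stretch is chr19:15925162-15925221, both on the minus strand of GRCm38.p6, with the shared letters in capitals.
Trib3: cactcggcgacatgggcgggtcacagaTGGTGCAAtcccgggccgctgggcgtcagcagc
Psat1: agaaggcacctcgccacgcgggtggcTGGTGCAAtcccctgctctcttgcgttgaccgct

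Read across the 10 genes, the enzymes of amino acid and one-carbon synthesis were lower on the RCCS array. The stress genes downstream of ATF4, Ddit3, Trib3 and Chac1, lay within spot error of the control level under the reported scaling. Of the 10, 7 had a log2 ratio below 0 and 3 above it. The 3 above 0 were Ddit3, Trib3 and Chac1, and the spot interval of each included 0. Against the median of all genes these 3 were at 0.41, 0.24 and 0.35. Spike-in scaling placed them at 0.585, 0.42 and 0.53, still short of 2-fold. The interval of each of the other 7 lay wholly below 0, as did that of 27.5% of all measured genes. The biosynthetic members Phgdh, Psat1, Shmt2, Mthfd2, Asns and Cth were all 6 below 0, with a median of -1.15.

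At least 2-fold lower signal on the RCCS array was seen for 4 of the 10, Cth, Mthfd2, Phgdh and Shmt2, where 3.76% of all measured genes (603 of 16023) were that much lower. None of the 10 was at least 2-fold higher, where 3.88% of all genes (622) were. The members' median was -0.77, beside -0.13 over all measured genes, of which 61.8% lay below 0. The 4 genes did not hold equally under other ways of scaling the arrays. Of 10 alternative settings, 4 kept the reported scaling and could hardly move a member, and 6 rescaled the arrays or corrected background anew. In these 6, Cth stayed at least 2-fold lower in 6, Mthfd2 in 5, Phgdh in 4 and Shmt2 in 2. Scaling on spike-in probes left Cth as the one member at least 2-fold lower, and loess on signal left 2 members. The sign of every member was the same in all 10 settings, but most settings could not have changed it. Scaling by 1 factor moved all genes upwards by at most 0.31, too little to bring Asns, at -0.48, to 0. Quantile normalization, loess and normexp were not bound in this way.

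**Figure D1:**
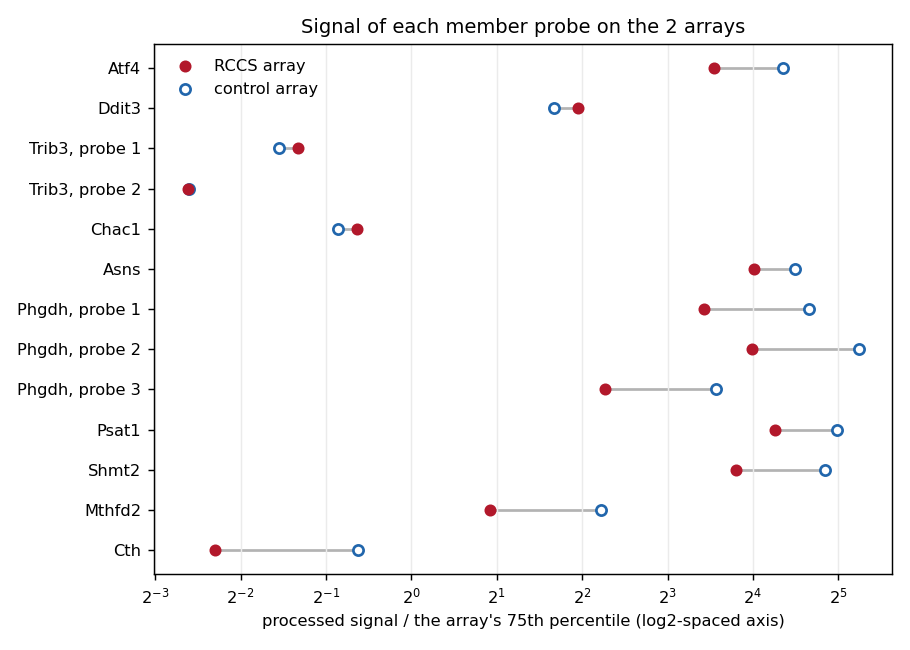
Processed signal of each of the 13 member probes divided by its array's 75th percentile, on a log2-spaced axis, with filled points for the RCCS array and open points for the control array. The RCCS point lies clearly left of the control point for Atf4, Asns, Psat1, Shmt2, Mthfd2, Cth and all 3 Phgdh probes, while the Ddit3, Chac1 and Trib3 points lie close together. Distances within a row can be read, but heights of different probes cannot be compared.

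Atf4, on chromosome 15, encodes the transcription factor at the centre of the response. Its probe had a processed signal of 11233 on the RCCS array, against 17408 on the control. The log2 ratio was -0.82 ± 0.40, that is 1.76-fold lower on the RCCS array, and 6.74% of measured genes had a lower ratio. Against the median of all genes it was -0.69. Atf4 mRNA was thus below the control level but short of 2-fold, and across the alternative settings it stayed between -0.82 and -0.51.

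Ddit3, on chromosome 10, encodes CHOP, a C/EBP-family factor that ATF4 induces and that is linked to cell death under lasting stress. Its signal was 3734 on the RCCS array, against 2712 on the control, with a log2 ratio of 0.28 ± 0.40. A ratio of this size sits at the upper side of the whole distribution, with 79.7% of genes lower, yet its spot interval includes 0. The difference between Atf4 and Ddit3 was -1.09, with a spot interval of -1.66 to -0.53, so the 2 genes differed by more than their spot error.

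Trib3, on chromosome 2, encodes a pseudokinase that ATF4 and CHOP induce and that restrains ATF4 activity. Its brighter probe had 386 on the RCCS array, against 289 on the control, a log2 ratio of 0.23. Its dimmer probe had 157 on the RCCS array, against 139 on the control, a log2 ratio of -0.01. The probes together gave 0.11 ± 0.29, with the RCCS and control arrays nearly alike.

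Chac1, also on chromosome 2, encodes an enzyme that breaks down glutathione and is among the genes most responsive to ATF4. It had a signal of 621 on the RCCS array, against 470 on the control. The log2 ratio was 0.22 ± 0.40, and 76.4% of genes were lower. Trib3 and Chac1 were dim beside Atf4 and Ddit3 on both arrays, though signals of different probes cannot be ranked as amounts of RNA.

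Asns, on chromosome 6, encodes asparagine synthetase, a textbook target of ATF4 in amino acid shortage. Its signal was 15561 on the RCCS array, against 19064 on the control, and its log2 ratio was -0.48 ± 0.40. Of all genes, 20.9% were lower, and among the 6 biosynthetic members Asns had the ratio nearest 0. It stood above Phgdh by 0.78 on the log2 scale (spot interval 0.32 to 1.25).

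Phgdh, Psat1 and Psph encode the 3 successive enzymes of serine synthesis, and the first and second are members. Phgdh, on chromosome 3, encodes the dehydrogenase of the first step and had 3 probes. The first gave 10369 on the RCCS array, against 21407 on the control, a log2 ratio of -1.23. The second gave 15292 on the RCCS array, against 32125 on the control, a log2 ratio of -1.26. The third gave 4665 on the RCCS array, against 10101 on the control, a log2 ratio of -1.30. Although the signals of the probes differ, each placed Phgdh lower on the RCCS array by nearly the same ratio.

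The gene value of Phgdh was -1.26 ± 0.23, or 2.40-fold lower. Its probes spanned 0.07 on the log2 scale, against a median span of 0.47 over the 1071 genes with 3 measured probes, and 24 of these genes (2.24%) had a span as small or smaller. The first and second probes overlap in the array's own coordinates and so are not separate looks at the mRNA. The third covers 709 bases there, longer than the probe itself, and so spans an intron. The ± of 0.23 treats the 3 probes as separate, and is too narrow to the extent that they overlap. Quantile normalization gave -1.001 and loess -0.99, both outside the spot interval of the value above, and scaling on spike-in probes gave -0.95.

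Psat1, on chromosome 19, encodes the aminotransferase of the second step. Its signal was 18419 on the RCCS array, against 26808 on the control, a log2 ratio of -0.73 ± 0.40 or 1.66-fold lower. Of all genes, 9.34% were lower. Psph, the phosphatase of the last step and not a member, was at -0.49. Phgdh minus Psat1 was -0.54 (spot interval -0.997 to -0.07) and Phgdh minus Psph was -0.78 (-1.14 to -0.41), while Psat1 minus Psph was -0.24 with an interval of -0.73 to 0.25. By value, the first step lay furthest below the control level, and the order of the later steps could not be read beyond spot error. Both Phgdh intervals are too narrow to the extent that its probes overlap. The one against Psat1 ends close to 0, so the order of Phgdh and Psat1 is uncertain.

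Shmt2, on chromosome 10, encodes the mitochondrial hydroxymethyltransferase that splits serine into glycine and a one-carbon unit. Its signal was 13440 on the RCCS array, against 24381 on the control. The log2 ratio was -1.04 ± 0.40, or 2.06-fold lower, and 3.34% of genes were lower. It sat just inside the 2-fold threshold. Shmt1, its cytosolic counterpart, was at -1.37, and the difference of Shmt2 minus Shmt1 was 0.32 with a spot interval of -0.17 to 0.81.

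Mthfd2, on chromosome 6, encodes the mitochondrial dehydrogenase and cyclohydrolase that takes up that one-carbon unit. Its signal was 1830 on the RCCS array, against 3971 on the control. The log2 ratio was -1.30 ± 0.40, or 2.47-fold lower, and 1.64% of genes were lower. Mthfd1, the cytosolic trifunctional enzyme, was at -0.89, and Mthfd1l, the mitochondrial formate-releasing enzyme, was at -0.76. Mthfd2 minus Mthfd1 was -0.41 (-0.90 to 0.08) and Mthfd2 minus Mthfd1l was -0.54 (-1.11 to 0.02). These 3 genes were all lower on the RCCS array, and neither difference exceeded the assigned spot error.

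Cth, on chromosome 3, encodes cystathionine gamma-lyase, which makes cysteine at the end of transsulfuration. Its signal was 196 on the RCCS array, against 549 on the control. The log2 ratio was -1.67 ± 0.41, or 3.18-fold lower, the lowest of the 10, and 0.793% of genes were lower. Cbs, which makes the substrate of Cth, was at -0.32 ± 0.49, and Cth minus Cbs was -1.35 with a spot interval of -1.99 to -0.71. The alternative settings placed Cth between -1.71 and -1.31.

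**Figure D2:**
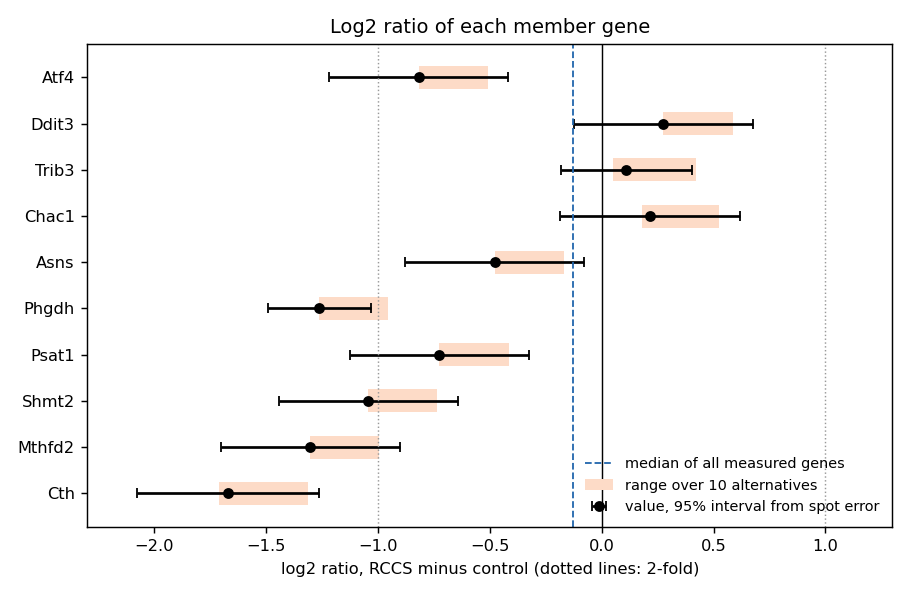
Log2 ratio of RCCS over control for each member, with bars for the 95% interval from spot error, boxes for the range over 10 alternative settings, a solid line at 0, dotted lines at 2-fold and a dashed line at the median of all measured genes. The points of Cth, Mthfd2, Phgdh and Shmt2 lie below the lower 2-fold limit, Atf4, Psat1 and Asns lie between it and 0, and the bars of Ddit3, Chac1 and Trib3 cross 0.

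Ordered from the lowest ratio, the members ran Cth, Mthfd2, Phgdh, Shmt2, Atf4, Psat1, Asns, Trib3, Chac1 and Ddit3. Of the 9 pairs of neighbours in this order, only Asns and Trib3 differed by more than their spot error, by -0.59 with an interval of -1.08 to -0.09. By window, the 3 members that hold TGATGNAA were at -0.48, 0.11 and 0.22, for Asns, Trib3 and Chac1, with a median of 0.11. The 6 with a window and no match lay between -1.30 and 0.28, with a median of -0.93. The values of the 3 lie within the range of the 6.

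Brightness moved with the ratios on these arrays. The 1864 genes whose brighter signal was at least 10000 had a median of -0.35, and 5.36% of them were at least 2-fold lower, so members that are bright were set against genes of like brightness, in 20 equal bins. Within its bin, 2.12% of genes were lower than Phgdh, 3.37% were lower than Shmt2, 1.75% lower than Mthfd2 and 0.499% lower than Cth. For Atf4 the share was 8.49%, for Psat1 9.85% and for Asns 30.3%. For Ddit3, Chac1 and Trib3 it was 82.5%, 68.2% and 58.9%. Loess on signal, which removes the trend with brightness over all genes, gave -1.65 for Cth, -1.16 for Mthfd2, -0.99 for Phgdh and -0.74 for Shmt2, so Phgdh and Shmt2 no longer reached 2-fold. Under loess Atf4 was at -0.53, Psat1 at -0.41 and Asns at -0.18.

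**Figure D3:**
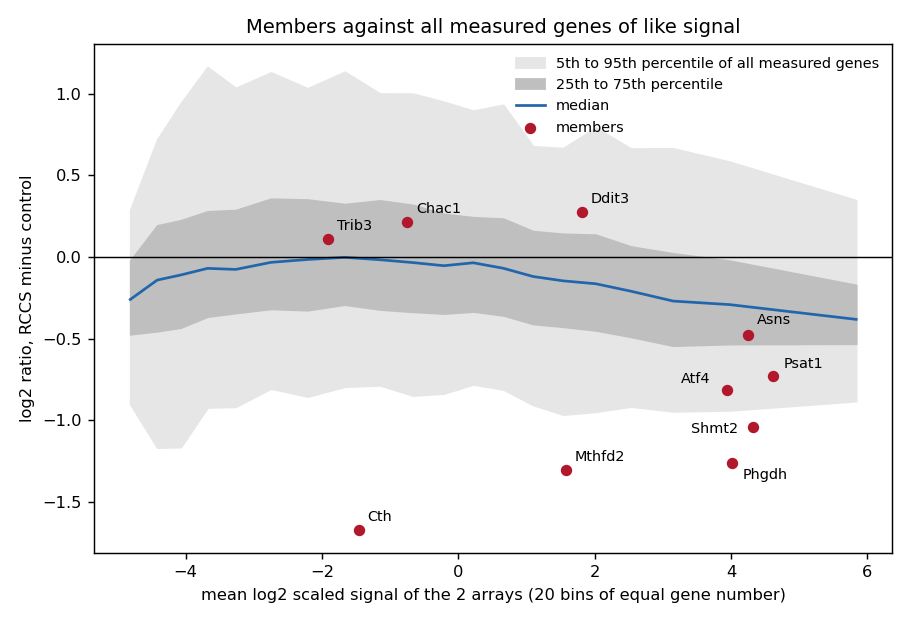
Log2 ratio of RCCS over control against mean log2 scaled signal, with the 10 members as points, and the median (line) and the percentile ranges 25 to 75 and 5 to 95 (bands) of the 16023 measured genes in 20 bins of equal gene number. The line lies below 0 in all 20 bins and lowest in the brightest, at -0.38, and Phgdh, Shmt2, Mthfd2 and Cth lie below the lighter band.

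Genes of the wider pathway, in 6 lists, gave the members a setting. Among the kinases and phosphatases of eIF2alpha, all 9 were measured and the median was -0.25. None differed by 2-fold, where 3.76% of all genes were that much lower and 3.88% higher. The kinase Eif2ak4, or GCN2, which senses uncharged tRNA, was at -0.25, with its probes at -0.64 and 0.14. Eif2ak3, or PERK, which senses unfolded protein, was at 0.18. Eif2ak1, the haem-sensing kinase, was at -0.04, with its probes between -0.45 and 0.37. The double-stranded RNA kinase Eif2ak2 was at -0.82 and Impact, an inhibitor of GCN2, at 0.71. Eif2s1, eIF2alpha itself, was at -0.38, and its phosphatase subunits Ppp1r15a and Ppp1r15b were at -0.29 and -0.32. The probes of Ppp1r15b differed, at -0.65 and 0.01. Relative to the median of all genes, the list lay between -0.15 and 0.08 over the 10 settings.

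The partners of ATF4 and other stress bZIP factors stood on the other side, with a median of 0.70 over 10 of 11 genes measured. Of the 10, 2 passed 2-fold upwards and 1 downwards, beside 3.88% and 3.76% of all genes. Atf3, a repressor induced by ATF4, was at 1.35, Cebpb at 0.74, Cebpd at 0.996, just short of 2-fold, and Atf5 at 0.79. Maf was at 1.16, with its probes apart at 0.23 and 2.09, the brighter being the lower. Cebpg, the C/EBP partner of ATF4 in amino acid stress, was at 0.01, with its probes at -0.29 and 0.32. Jdp2, a bZIP factor that pairs with JUN, was at -2.02. Relative to all genes, the median of this list lay between 0.55 and 0.86 over the settings, and that of the members between -0.65 and -0.44.

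Other targets of ATF4 held a median of -0.10 over 26 of 29 measured. Of the 26, 2 were at least 2-fold higher and none lower, beside 3.88% and 3.76% of all genes. Slc7a11, the cystine importer subunit, was at 3.08, or 8.47-fold higher, with its probes between 2.12 and 3.70. It was dim on the control array, with a brightest probe of 158, and was at 2.31 under normexp, still past 2-fold. Slc3a2, its heavy chain, was at 0.27. Vegfa, an angiogenic factor, was at 1.12, but at 0.77 under normexp background correction. Sqstm1, an autophagy receptor, was at 0.92. Gdf15, a stress cytokine, was dim at -0.93 ± 0.71. Sesn2 and Ddit4, inhibitors of mTORC1, were at 0.31 and -0.15, and Pycr1, of proline synthesis, was at -0.66. Aldh1l2, of mitochondrial folate, was at 0.30 ± 0.56. The cystine importer Slc7a11 and Cth, both routes to cysteine, thus lay on opposite sides of the control level. Relative to all genes, the median of this list lay between -0.03 and 0.10 over the settings.

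The serine, glycine and folate enzymes beyond the members had a median of -0.60 over 25 measured, with 22 of 25 below 0, beside 61.8% of all genes. Spot intervals lay wholly below 0 for 16 of the 25, beside 27.5% of all genes. At least 2-fold lower were 3 and higher 1, beside 3.76% and 3.88% of all genes. Shmt1 was at -1.37, Gcat, of threonine breakdown to glycine, at -1.12, and Aldh1l1, of cytosolic folate, was dim at -1.27 ± 0.58. Gcat was short of 2-fold under spike-in scaling, at -0.82, and Aldh1l1 under normexp, at -0.64. Gldc, which breaks down glycine, was at 1.07 ± 0.49. It was dim on the control array, at a signal of 53, and was at 0.50 under normexp. Relative to the median of all genes, the list lay between -0.48 and -0.32 over the settings. This list and the members share the serine-glycine route, so they are not separate evidence of each other.

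The methionine, transsulfuration and glutathione enzymes had a median of -0.08 over 18 of 20 measured. Of the 18, 2 were at least 2-fold higher and none lower, beside 3.88% and 3.76% of all genes. Relative to all genes, this median lay between 0.03 and 0.30 over the settings. Anpep, an aminopeptidase, was at 1.57 and Oplah, a glutathione-cycle enzyme, at 1.05. Oplah was dim on the control array, at a signal of 60, and was at 0.56 under normexp. Gclm, of glutathione synthesis, was at 0.99 and Ahcy, of the methionine cycle, at -0.75. The endoplasmic reticulum unfolded protein response had a median of -0.28 over 26 of 26 measured, with no 2-fold difference in either direction and 21 below 0, beside 61.8% of all genes below 0. Hspa5, the chaperone BiP, was at -0.57, Xbp1 at -0.12, Sdf2l1 at -0.92, Creld2 and Manf at -0.64 each and Syvn1 at -0.67, whose probes differed (-1.32 and -0.02). Relative to all genes, this median lay between -0.21 and -0.02 over the settings.

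**Figure D4:**
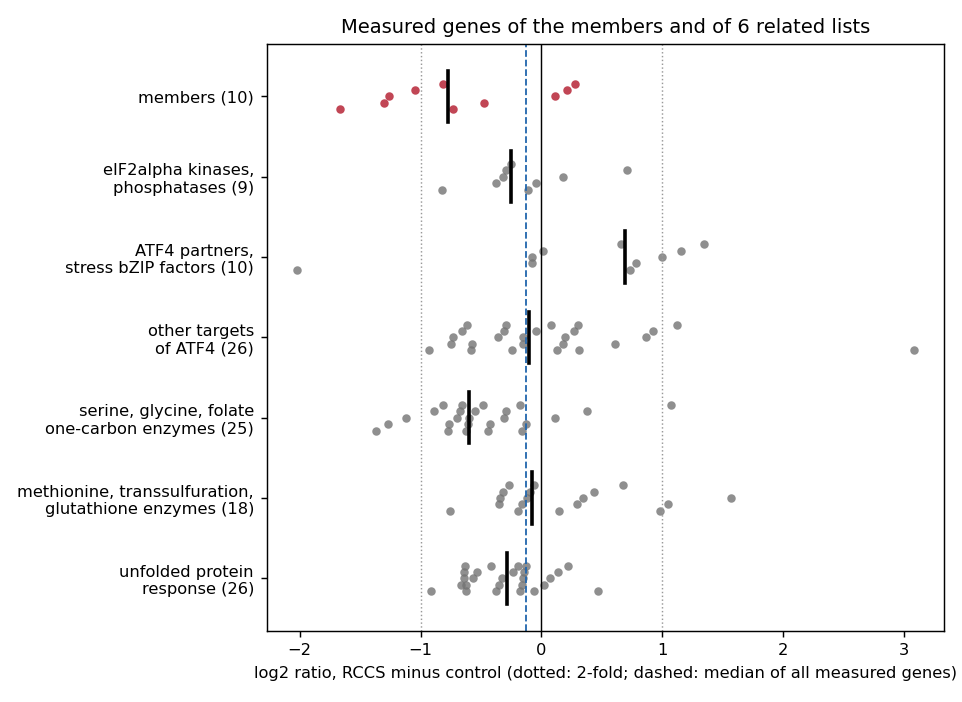
Log2 ratios of RCCS over control for the members and 6 further lists, 1 point a measured gene, with a bar at each list's median, a solid line at 0, dotted lines at 2-fold and a dashed line at the median of all measured genes. By their medians, the members and the serine, glycine and folate enzymes lie furthest below 0, the bZIP factors furthest above, and Slc7a11 lies alone at 3.08.

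Among the factors outside these lists, Myc, a driver of nucleotide and serine synthesis genes in dividing cells, had a signal of 859 on the RCCS array, against 8574 on the control, at -3.50. The 10 settings placed it between -3.53 and -3.19. Its part in the values of the serine-glycine members was not tested.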

How the data were processed

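RNA from 1 RCCS and 1 control culture was hybridised to Agilent whole mouse genome arrays. The authors deposited the scanner output of Agilent Feature Extraction 9.5.3.1, per the file headers, whose processed signals are background-subtracted intensities; the deposited flags are other values that mark each spot as well above background or as an outlier. The authors' deposited table of normalized ratios, made with GeneSpring GX 7.3.1 per the series text, has a median of 0.06 on both arrays. It was used as an alternative.

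Intensity was divided by each array's 75th percentile and compared as log2 ratio. Outlier spots were left out, leaving 41171 of 41174 probes, and a probe counted as measured when at least 50% of its spots were well above background on both arrays. A gene is the mean of its measured probes. The spot error gives the 95% interval. Over 150 probes printed several times, the SD of repeat spots had a median of 0.04 at signals of 100 or more (117 probes) and 0.26 below (33). RefSeq symbols matched 22950 probes, and no source used here names the genome build behind the array's coordinates. Limma 3.58.1 supplied the normexp alternative and statsmodels 0.14.6 the loess alternative, while quantile normalization was computed from the ranks of the signals. The scripts were tested on simulated data. The members and lists were chosen with earlier results of these data known. Named genes are all members, a set list of related genes, and up to 4 with the largest absolute log2 ratio from each list. Batf, Vldlr, Fgf21, Slc7a3, Ggt1 and Ggt5 were measured on neither array, Sds on the control array alone, and Mthfd2l and Amt had no probe under those names.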

Additional observations from a re-analysis of the deposited data

How the results depend on the processing

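Of 60 values of single members under the 6 settings that rescale the arrays or correct background anew, 56 lay within the spot interval of the reported value and 0 changed sign. The other 4 settings keep the reported scaling and could hardly move a member. The 4 values outside were Trib3 at 0.42 and Phgdh at -0.95 under spike-in scaling, and Phgdh at -1.001 under quantile normalization and -0.99 under loess. Members with 1 probe have a half-width near 0.40, so scaling by 1 factor, which moved genes by at most 0.31, could not place them outside. Trib3 and Phgdh, with 2 and 3 probes, have narrower half-widths of 0.29 and 0.23. The count of 56 thus depends on interval width. Scaling by 1 factor also moved every gene upwards by too little to change the sign of a member, so the count of 0 is partly fixed by design. Members at least 2-fold lower numbered 1 under spike-in scaling, 2 under loess and 1 at a 3-fold threshold, in place of 4. Over all genes, the 603 lower and 622 higher became 261 and 1201 with spike-in scaling, 346 and 364 with normexp, 1804 and 1607 with no filter on dim probes, 2378 and 1560 at a 1.5-fold threshold and 154 and 205 at 3-fold. Of all calls, 50.8% were higher, 82.1% under spike-in scaling, 66.7% at the 75th percentile of measured probes and 63.5% under loess. These scalings moved the median of all genes by 0.31, 0.14 and 0.13, and lifting the dim filter moved it by -0.12. Spike-in scaling adds the same 0.31 to every gene, which by construction makes fewer calls lower and more higher, as other thresholds and filters change how many genes can pass. For loess, quantile normalization and normexp the cause was not tested. Spot error limits each value, and with 1 culture per condition the spread between cultures was not measured. No paired analysis was possible because each condition has 1 sample.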

Other observations

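The TGATGNAA core was found in 8 of the 22 other ATF4 targets with a window (36.4%), beside 3 of 9 members (33.3%), in 2 of 9 bZIP factors and in 299 of the 9994 measured genes with a window (2.99%). It was found in 0 of 23 serine, glycine and folate enzymes, 0 of 14 methionine, transsulfuration and glutathione enzymes, 0 of 22 unfolded protein response genes and 0 of 6 genes of the eIF2alpha list. The ATF4 target list was written from known targets, and the members with a match, Asns, Chac1 and Trib3, are known targets too. Neither share is thus an independent result. The bZIP genes with a match were Atf3, at 1.35, and Jdp2, at -2.02, which lie on opposite sides of the control level. The measured genes with a match had a median of -0.10. Of the 299, 18 were lower by 2-fold or more (6.02%, beside 3.76% of all measured genes). A similar number, 17 of the 299, were higher by 2-fold or more, beside 3.88% of all measured genes. The shares of 3.76% and 3.88% are over all 16023 measured genes, with or without a window. Shares among the 9994 with a window were not computed, so these are not like comparisons.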
